A study of Mus musculus with 12 samples.

Results

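The comparison asked which hippocampal transcripts differ between mice lacking NONO and wild-type mice when both were sampled under the label CT10. The series holds 12 libraries of hippocampal polyadenylated RNA, in 4 groups of 3 by genotype and CT label, and 6 of the 12, taken by the labels KO1 to KO3 CT10 and WT1 to WT3 CT10, form the comparison described here. The WT CT10 group is wild-type C57BL/6, and the KO CT10 group is labelled as the Nono knockout on C57BL/6. The other 6 libraries, 3 WT CT22 and 3 KO CT22, were used only to ask whether a difference seen at CT10 was also seen there. No treatment is given for any group, the mice are described only as adult, and the numbers 10 and 22 are parts of labels that are not spelled out. How the Nono allele was made, whether the WT mice were littermates, and whether replicate libraries are separate animals are not given in the sources used here. The p-values therefore reflect the spread between these samples alone, and that spread may be technical. Tissue was taken whole, so in these bulk libraries fewer cells of a type and less RNA per cell cannot be told apart.

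NONO is a nuclear protein that binds RNA and DNA. With SFPQ and PSPC1 it forms the DBHS family, whose members pair with one another and gather in paraspeckles, nuclear bodies built on the long noncoding RNA Neat1. NONO takes part in transcription, splicing and DNA repair, binds PER proteins of the circadian clock, and acts with the CRTC coactivators in transcription driven by cAMP. Many of the transcripts described below are known targets of glucocorticoids: corticosterone, which the adrenal gland releases in a daily rhythm and under stress, enters cells and binds the glucocorticoid receptor (Nr3c1) and the mineralocorticoid receptor (Nr3c2), both abundant in the hippocampus, and the bound receptor activates genes by contacting a palindrome of paired 6-base half-sites.

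The letters of promoters near 2 such targets, Sgk1 and Ddit4, are shown here because both genes passed the threshold of the test described below. Sgk1 encodes a kinase that regulates ion channels and transporters, and Ddit4 encodes an inhibitor of the growth-regulating kinase complex mTORC1. The sequences come from the RefSeq promoter table of build GRCm38.p6, each being the 250 bases before an annotated transcript start, 5′ to 3′. Capitals mark matches to the glucocorticoid half-site AGAACA on either strand (TGTTCT on the other), to the E-box CACGTG that clock factors bind and to the cAMP response element TGACGTCA. The first is the window before the start of the Sgk1 transcript NM_011361 (chr10:21994416-21994665, plus strand), the second the window before the upstream Sgk1 transcript NM_001161850 (chr10:21993640-21993889, plus strand), and the third the window before Ddit4 (chr10:59951771-59952020, minus strand). The second was added because it held paired half-sites, so that match is the reason it is shown and no finding.

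Sgk1 NM_011361: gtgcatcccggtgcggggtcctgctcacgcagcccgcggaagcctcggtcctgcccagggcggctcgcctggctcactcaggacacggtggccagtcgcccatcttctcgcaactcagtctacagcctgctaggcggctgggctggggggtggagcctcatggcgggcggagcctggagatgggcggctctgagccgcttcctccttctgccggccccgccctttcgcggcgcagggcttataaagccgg
Sgk1 NM_001161850: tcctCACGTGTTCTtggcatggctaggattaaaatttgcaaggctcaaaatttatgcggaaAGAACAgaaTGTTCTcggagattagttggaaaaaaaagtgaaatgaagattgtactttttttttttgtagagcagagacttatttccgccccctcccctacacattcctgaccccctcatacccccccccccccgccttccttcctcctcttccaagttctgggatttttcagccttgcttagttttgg
Ddit4: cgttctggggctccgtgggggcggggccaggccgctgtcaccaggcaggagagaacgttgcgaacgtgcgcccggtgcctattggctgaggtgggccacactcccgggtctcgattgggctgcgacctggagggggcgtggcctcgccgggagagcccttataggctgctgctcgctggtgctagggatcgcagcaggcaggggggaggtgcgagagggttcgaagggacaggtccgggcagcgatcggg

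The windows before Sgk1 NM_011361 and Ddit4 held none of these letters. The upstream Sgk1 window held the paired half-sites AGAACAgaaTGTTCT at chr10:21993701-21993715, facing each other 3 bases apart, 189 bases before its own start and 965 bases before that of NM_011361. It also held 1 E-box, which overlaps a further half-site. Of 32851 promoters in the table, each searched over 250 bases before and 50 after the start, 3 held such paired half-sites (0.00913%), those of Acnat2, Sgk1 and Gm35041. Single half-sites were common: 6233 of 32851 promoters held one (19%), and so did 8 of the 48 promoters (16.7%) of the 32 glucocorticoid-induced genes listed below that matched the table. The E-box was found in 6 of these 48 promoters (12.5%), against 7.15% of all promoters, and the cAMP response element in 2 (4.17%), against 1.79%. A match is a description of letters, and binding was not measured.

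Library totals ran from 6595222 to 9597054 estimated counts in the 6 CT10 libraries. Markers of the hippocampal principal cells were read in all 6: Prox1 of dentate granule cells at 66.2 to 93.1 CPM (counts divided so that every library has the same total) and Wfs1 of CA1 at 128 to 226 CPM. Several libraries stood apart. In KO CT10 replicate 1 the summed level of 13 choroid plexus markers was 3614 CPM, and in WT CT10 replicate 3 it was 1637 CPM, against 116 to 361 CPM in the other 4. KO CT10 replicate 3 went against its label in clock genes: Dbp stood at 33.5 CPM there and at 70.3 to 106 CPM in the other 5 libraries, below the WT CT22 values of 43.2 to 59.6 CPM. In the opposite sense, KO CT22 replicate 1 held 90.9 CPM of Dbp. Whether these 2 KO libraries were exchanged was not tested: both are used as labelled, and the KO values at either label and the difference between labels depend on it. The genes called are given below with and without them. Of the lists whose counts moved with single libraries, some are given without those libraries too.

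At CT10, 4 of 13735 genes tested (0.0291%) passed an adjusted p of 0.05 (edgeR quasi-likelihood test, Benjamini-Hochberg adjustment). Nono, Ddit4 and Sgk1 fell, and Entpd4 rose. In all, 689 genes (5.02%) had an unadjusted p under 0.05, 344 lower (2.50%) and 345 higher (2.51%) in KO. That count ran from 459 without WT CT10 replicate 1 to 1054 without KO CT10 replicate 1 when 1 library was left out (518 without KO CT10 replicate 3), and was 1204 without both libraries high in choroid plexus markers. The median log2 change over all genes was 0.01, with 6644 lower and 7091 higher. In 1414 genes (10.3%) every KO library lay beyond every WT library, 744 of them lower (5.42%) and 670 higher (4.88%). Of 13053 genes with a mean of at least 2 CPM, 219 were past 1.5-fold either way. Of the first 3 principal components, the third, with 21.6% of the variance, placed all 3 KO libraries on one side of the WT libraries, and the first 2 did not separate the genotypes.

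**Figure D1:**
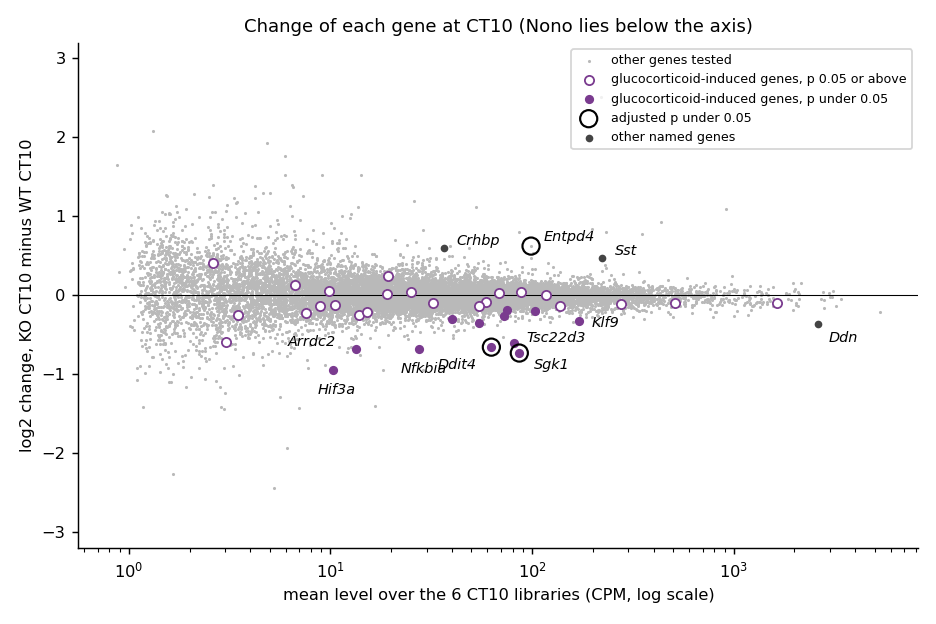
Each point is 1 gene, with its mean level over the 6 CT10 libraries (CPM, log scale) on the x axis and its log2 change, KO CT10 minus WT CT10, on the y axis. Purple points are the 35 glucocorticoid-induced genes, filled where the unadjusted p is under 0.05, and black rings mark the genes past an adjusted p of 0.05 other than Nono, which at -10.20 lies below the axis. All 12 filled purple points lie below 0, and Entpd4 is the ringed gene above it.

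Loss of the targeted transcript was checked before other genes. On the X chromosome, Nono (101429651 to 101448593 on the plus strand) had 1324, 1537 and 1147 counts in the WT CT10 libraries and 0, 1 and 2 counts in the KO CT10 libraries. The KO group as a whole held 3 counts among 24029649, or 0.125 CPM with an exact 95% Poisson interval of 0.0258 to 0.365 CPM that covers counting error only, against 164 CPM (159 to 169) in WT. The log2 change of -10.20 (edgeR adjusted p = 1.35e-12) depends on the prior count and is no measure of how far the transcript fell. Both annotated transcripts were at or near 0 in KO. The genotype in the labels was thus matched by the transcript in all 6 libraries, which does not bear on their CT part.

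Ddit4 (chromosome 10, 59949675 to 59951770, minus strand) fell in KO to 63.5% of its WT level. It was read at 68.1, 79.6 and 82.7 CPM in the WT libraries and at 50.2, 49.9 and 46.3 CPM in the KO libraries. The KO values lay close together and all below the WT values. As means ± SD over 3 libraries these are 76.8 ± 7.65 and 48.8 ± 2.17 CPM, a log2 change of -0.66 with a standard error (SE) of 0.10 (edgeR adjusted p = 0.0393).

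Sgk1 (chromosome 10, 21882184 to 21999902, plus strand) fell to 60.3% of WT, from 106, 118 and 98.8 CPM to 75.8, 61.8 and 57.4 CPM. The highest KO library, replicate 1, stayed below the lowest WT library, and the means were 107.8 ± 9.76 and 65.0 ± 9.59 CPM. The log2 change was -0.73 with an SE of 0.11 (edgeR adjusted p = 0.0393). The groups differed mainly in 1 of the 6 annotated transcripts. NM_011361, the transcript whose start is shown above, was estimated at 81.0, 94.3 and 79.7 CPM in WT and 54.8, 40.0 and 39.0 CPM in KO, whereas the long transcript NM_001161845, which starts over a separate promoter, was at 20.6, 22.1 and 18.1 CPM in WT and 20.9, 18.6 and 17.4 CPM in KO. The groups are apart in the short transcript and overlap in the long one. NM_001161850, whose window holds the paired half-sites, averaged 1.85 ± 0.608 CPM (SD) in WT against 1.25 ± 0.684 CPM in KO. The division of reads between transcripts is an estimate of the authors' counting, and transcripts were not tested.

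Entpd4, a nucleotide-cleaving enzyme of internal membranes, rose from 73.5, 81.4 and 78.1 CPM in WT to 114, 127 and 119 CPM in KO, with no overlap. The log2 change was 0.62 with an SE of 0.08 (edgeR adjusted p = 0.0186). The files place this symbol at 2 copies on chromosome 14 (69337151 to 69366742 and 69555401 to 69584992, plus strand), and their estimated counts are equal in each library, so which copy gave the reads is uncertain. In the CT22 libraries the levels were spread in both genotypes: 80.9, 121.6 and 161.5 CPM in WT and 77.7, 115.4 and 149.4 CPM in KO. The WT CT22 values alone thus ran from within the WT CT10 range to above the KO CT10 range.

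These calls depend on the libraries in the fit. Without KO CT10 replicate 3, whose clock genes go against its label, Ddit4 was at -0.62 (edgeR adjusted p = 0.255), Sgk1 at -0.65 (adjusted p = 0.255) and Entpd4 at 0.63 (adjusted p = 0.064), and Hba-a1, a globin gene chosen for mention after its values were seen, passed with Nono. Leaving out WT CT10 replicate 1 or 2 left only Nono past the threshold. Without KO CT10 replicate 2, Nono and Entpd4 passed. Ddit4 passed in none of the fits with 1 library left out (edgeR adjusted p from 0.061 to 0.257). Without both libraries high in choroid plexus markers 6 genes passed, Sgk1 and Entpd4 among them and Ddit4 not (log2 change -0.62, adjusted p = 0.101). A fit over all 12 libraries with a shared spread called Nono alone at CT10, with adjusted p = 0.664 for Ddit4 and Sgk1 and 1.00 for Entpd4. The direction of the 3 genes was the same under every one of the 14 alternatives run. Their groups do not overlap in these libraries, so leaving some out could not turn it, and the unchanged direction is no test.

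Of the 35 glucocorticoid-induced genes fixed as a list, 26 were lower and 9 higher in KO, with a median log2 change of -0.14 against 0.01 over all genes. Unadjusted p was under 0.05 for 12 members, all lower (34.3% of the list, against 2.50% of all genes that were lower at that p), and the groups did not overlap in 12 members, again all lower (34.3%, against 5.42% of all genes): 11 of those genes and Sult1a1, while Per1 overlapped. Only Ddit4 and Sgk1 passed the adjusted threshold. The list was chosen with earlier results of these data known, so its counts are a description.

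Among signalling inhibitors of the list, Nfkbia, which holds NF-kappa-B in the cytoplasm, was at 30.8, 34.3 and 36.4 CPM in WT and 21.9, 25.4 and 16.3 CPM in KO, a log2 change of -0.68 (edgeR adjusted p = 0.415). Tsc22d3, the glucocorticoid-induced leucine zipper protein, was at 81.3, 105 and 107 CPM in WT and 60.4, 76.7 and 55.9 CPM in KO (-0.61, adjusted p = 0.484). Errfi1, an inhibitor of the EGF receptor, was at 58.8, 60.4 and 63.4 CPM against 43.1, 48.5 and 52.1 CPM (-0.35). In all 3 genes the groups were apart, and KO CT10 replicate 3 was the lowest library of Nfkbia and Tsc22d3 but the highest KO library of Errfi1. Arrdc2, an arrestin-domain protein, showed little spread within KO: 10.7, 10.2 and 9.88 CPM, below WT at 14.1, 16.5 and 18.9 CPM (-0.68, adjusted p = 0.426).

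Of the transcription factors, Klf9 stood at 196, 184 and 191 CPM in WT and at 159, 138 and 158 CPM in KO, a log2 change of -0.33 ± 0.08 (SE, edgeR adjusted p = 0.529). Hif3a, of the hypoxia-inducible factor family, had the largest log2 change of the list, -0.95 ± 0.22 (adjusted p = 0.484), from 11.2, 14.4 and 14.8 CPM to 8.55, 7.91 and 4.54 CPM. Its KO spread was wide, with replicate 3 the lowest. Per1, a repressor of the clock that glucocorticoids also induce, was at 98.9, 118 and 114 CPM in WT and 92.7, 95.2 and 101.2 CPM in KO, where replicate 3 reached above the lowest WT library (-0.19). The groups of Sdc4, Tob2 and Sesn1, a cell-surface proteoglycan, an antiproliferative protein and a stress-induced sestrin, did not overlap, with log2 changes of -0.26, -0.30 and -0.19.

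Other well-known targets did not show this. Fkbp5, the receptor's co-chaperone and a common readout of glucocorticoid action, was at 86.8, 84.8 and 88.8 CPM in WT and 88.5, 96.2 and 84.2 CPM in KO, a log2 change of 0.04 ± 0.08. Zbtb16 was at -0.08, Mt1 and Mt2, the metallothioneins, at -0.10 and -0.13, Glul, glutamine synthetase of astrocytes, at -0.10, and Pdk4 at -0.12, with overlapping groups in each. Plin4, a lipid droplet protein, was at 2.54, 2.18 and 2.06 CPM in WT and at 2.81, 1.37 and 4.65 CPM in KO (0.41 ± 0.37), with the KO libraries on both sides of WT. The list thus holds members with separated values beside members near 0.

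**Figure D2:**
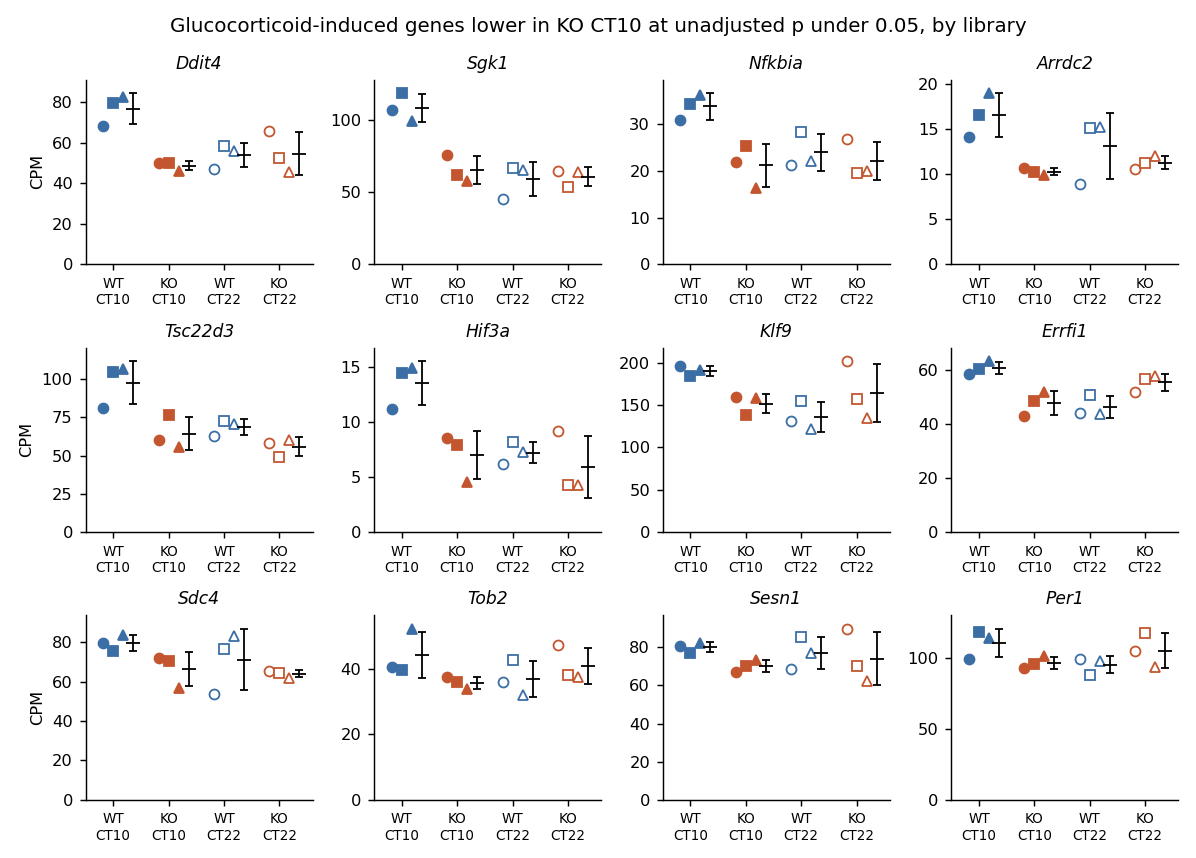
Level (CPM) of the 12 glucocorticoid-induced genes with an unadjusted p under 0.05, by library, in the 4 groups; filled points are CT10 and open points CT22, blue WT and orange KO, circle, square and triangle are replicates 1, 2 and 3, and the bar is the mean ± SD over 3 libraries. WT CT10 is the highest group mean in Sgk1, Ddit4, Nfkbia, Tsc22d3 and Hif3a. The other 3 groups lie near one another in Sgk1 and Ddit4. At CT22 the log2 change, KO minus WT, was -0.10 in Nfkbia, -0.29 in Tsc22d3 and -0.23 in Hif3a.

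The count of lower members held up to the libraries in doubt to different degrees. Without KO CT10 replicate 3, 30 of 35 members were lower with a median of -0.23, and 12 were lower at an unadjusted p under 0.05, as were 1.88% of all genes in that fit. Without the 2 libraries high in choroid plexus markers 27 were lower, 9 of them at that p, against 4.53% of all genes. Without WT CT10 replicate 3 the corresponding counts were 26 and 8, against 2.32% of all genes. All 12 genes kept their sign under each of the alternatives. They were picked as lower in these same libraries, and in all but Per1 the groups did not overlap, so the kept signs are no test. No other list than the clock and activity lists, with Per1, shares one of the 12 genes.

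The corticosteroid receptors themselves overlapped between groups. Nr3c1, the glucocorticoid receptor, averaged 75.0 ± 8.10 CPM (SD) over the WT libraries and 79.1 ± 6.17 CPM over the KO libraries, a log2 change of 0.08 ± 0.10 (SE), and Nr3c2, the mineralocorticoid receptor, at 158 ± 14.5 and 142 ± 15.8 CPM (-0.16 ± 0.10). Hsd11b1, which regenerates active glucocorticoid inside cells, was at 42.9 ± 5.43 and 37.4 ± 3.93 CPM (-0.20). Among 17 receptors and partners 13 were higher and 4 lower, and 1 had an unadjusted p under 0.05 (5.88%, against 2.51% of all genes that were higher at that p). That gene was Crhbp, the secreted protein that binds corticotropin-releasing hormone. It was read at 28.2, 32.4 and 26.6 CPM in WT and at 41.3, 48.5 and 42.9 CPM in KO, without overlap, a log2 change of 0.60 ± 0.11 (edgeR adjusted p = 0.244). The hormone itself, Crh, was at 0.831 to 1.91 CPM in WT and 1.24 to 2.43 CPM in KO.

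Among genes lower in every KO library than in every WT library, those with the smallest p past Ddit4 and Sgk1 included neuronal, astrocytic and other transcripts, none past the adjusted threshold in this fit. Ddn, dendrin, a protein of dendrites and their spines, was at 3221, 2830 and 2796 CPM in WT and 2280, 2424 and 2163 CPM in KO, a log2 change of -0.37 ± 0.08 (edgeR adjusted p = 0.415). Upp2, a uridine phosphorylase, was at 4.57, 4.05 and 4.11 CPM against 1.80, 1.67 and 1.86 CPM (-1.24 ± 0.26). Its CT22 values repeat that gap in other libraries, 2.66 to 4.61 CPM in WT and 0.448 to 2.05 CPM in KO. F3, tissue factor, a coagulation receptor made by astrocytes, was at 49.7 to 54.3 CPM in WT and 37.3 to 40.8 CPM in KO. Slc6a11, the GABA transporter GAT3 of astrocytes, was at 224, 235 and 260 CPM against 194, 190 and 176 CPM (-0.36).

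The remaining genes of that rule were Tnfrsf25, a death receptor (-0.89), Pcdhga2, a clustered protocadherin that shares exons with its neighbours and is uncertain for that reason (-0.94), the transcription factor Klf10 (-0.40) and the calcium-binding protein Cpne1 (-0.45), beside the 4 list genes Nfkbia, Arrdc2, Tsc22d3 and Hif3a. The largest of these changes rested on low levels, with Tnfrsf25 at 9.90 to 14.97 CPM in WT and 6.07 to 7.44 CPM in KO. A pair of uncharacterised symbols with small p were passed over among the lower genes, and 1 among the higher. Of the 12 genes named by the rule as lower, 11 were also lower at CT22. The share of all genes with the same direction at both labels was not counted, so this is a description.

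Past Entpd4, the gene with the smallest p among those higher in every KO library was Crhbp. Sst, the neuropeptide somatostatin of a class of interneurons, was at 162, 212 and 185 CPM in WT and 231, 283 and 261 CPM in KO, a log2 change of 0.47 ± 0.10 (edgeR adjusted p = 0.448). Sox9, a transcription factor of astrocytes and progenitors, was at 21.2, 22.4 and 23.8 CPM against 34.1, 30.4 and 30.5 CPM (0.50). Ntng1, the synaptic adhesion protein netrin G1, was at 20.5 to 22.5 CPM in WT and 28.1 to 32.0 CPM in KO (0.48), and Supt16h, a subunit of the histone chaperone FACT, at 46.1 to 57.7 and 67.1 to 70.3 CPM (0.38). The others were Heatr7a (0.41), Tagln of smooth muscle (0.79), the LIM-domain-binding cofactor Ldb2 (0.68), the DBHS member Pspc1 (0.41), Tcte2 (1.24, at 1.25 to 1.78 CPM in WT), the transcription factor Mycn (0.66) and the matrix protein Vwa1 (0.43). Of these 12 genes 9 were also higher at CT22, and Crhbp, Sst and Ldb2 were lower there. Here too the share over all genes was not counted.

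**Figure D3:**
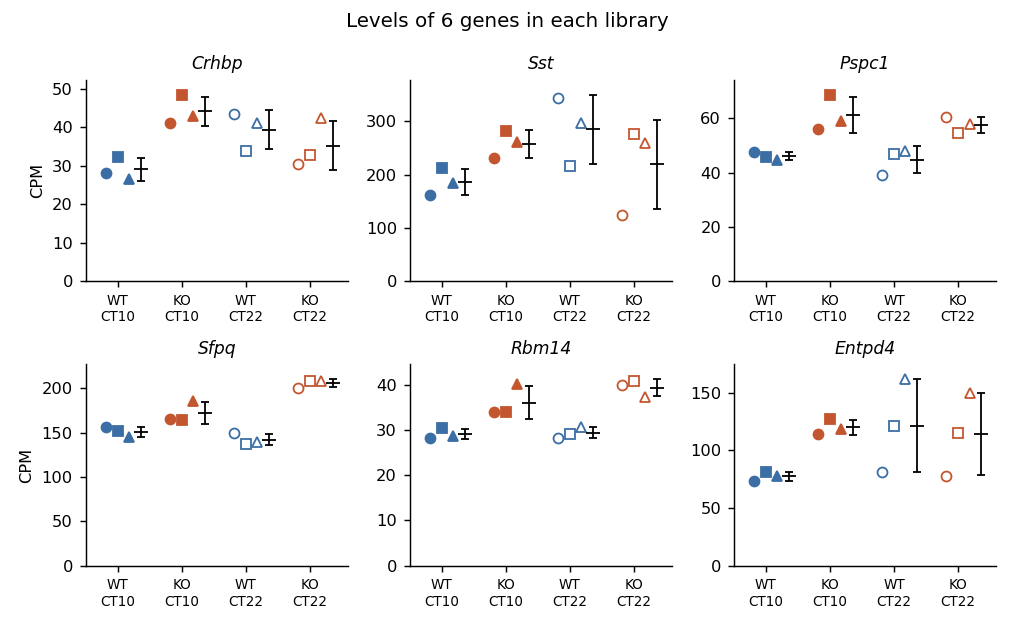
Level (CPM) of 6 genes by library, drawn as in the plot of glucocorticoid-induced genes (filled CT10, open CT22; blue WT, orange KO; bar mean ± SD). All 6 have every KO CT10 library above every WT CT10 library, as did 4.88% of all genes tested. That order was a condition for naming Crhbp, Sst and Pspc1. At CT22 Pspc1, Sfpq and Rbm14 keep the order, and Crhbp, Sst and Entpd4 overlap.

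The transcripts of the other DBHS proteins stood higher in the KO libraries. Pspc1 was at 47.6, 45.9 and 44.8 CPM in WT and 56.1, 68.8 and 59.0 CPM in KO, a log2 change of 0.41 ± 0.10 (edgeR adjusted p = 0.501). Sfpq, the third member, was at 156, 152 and 145 CPM in WT and 166, 165 and 186 CPM in KO (0.19 ± 0.08, adjusted p = 0.993). Rbm14, another paraspeckle protein, was at 28.3, 30.3 and 28.6 CPM against 33.96, 33.93 and 40.2 CPM (0.31 ± 0.11). In these 3 genes the groups were apart, and none passed the adjusted threshold at CT10. Neat1, the RNA on which paraspeckles form, was at 86.3, 75.5 and 72.4 CPM in WT and 131, 79.0 and 91.1 CPM in KO, which overlap, with KO CT10 replicate 1 the highest. Of 23 DBHS and paraspeckle genes, Nono included, 13 were higher and 10 lower, and 3 were higher at an unadjusted p under 0.05 (13%, against 2.51% of all genes). Without WT CT10 replicate 1 the lower members numbered 6. They numbered 12 without WT CT10 replicate 2 or 3, and also without both libraries high in choroid plexus markers. Leaving out 1 library at a time, Pspc1 stayed between 0.32 and 0.47.

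Core clock genes were examined because NONO binds PER proteins. Of 25 clock and clock output genes 12 were lower and 13 higher, with a median of 0.00, and 3 were lower (12%, against 2.50% of all genes) and 1 higher at an unadjusted p under 0.05. Per2, a core repressor, was at 63.3, 61.7 and 52.7 CPM in WT and 49.7, 44.7 and 48.5 CPM in KO, the groups apart (log2 change -0.31 ± 0.10, edgeR adjusted p = 0.787). Gm129, the clock repressor also called Ciart, was at 16.0, 14.4 and 14.5 CPM against 12.03, 12.32 and 6.74 CPM (-0.54), and Npas2, a CLOCK paralog, at 18.4, 25.3 and 22.6 CPM against 25.4, 27.5 and 32.2 CPM (0.36). The output gene Dbp had a log2 change of -0.08 with an SE of 0.48, the spread coming from KO CT10 replicate 3 at 33.5 CPM beside 93.0 and 106 CPM in the other KO libraries.

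Replicate 3 of KO CT10 was also the library apart in other rhythmic genes. Nr1d1, the repressor REV-ERB alpha, stood at 72.6 CPM there and at 108 to 117 CPM in the other 5 libraries, while Arntl, the activator BMAL1, was at 39.4 CPM there against 23.2 to 30.3 CPM, and Nfil3 at 18.5 CPM against 9.10 to 10.53 CPM. In WT CT22 the 3 libraries held 69.3 to 81.3 CPM of Nr1d1, 29.7 to 38.5 CPM of Arntl and 10.98 to 12.91 CPM of Nfil3. KO CT22 replicate 1 had the converse values: 125 CPM of Nr1d1, 27.7 CPM of Arntl and 9.82 CPM of Nfil3. In KO CT10 Per2 did not follow this, since replicate 3 at 48.5 CPM lay between the other KO CT10 libraries. In KO CT22, replicate 1 lay away from the other libraries in Per2 as well.

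**Figure D4:**
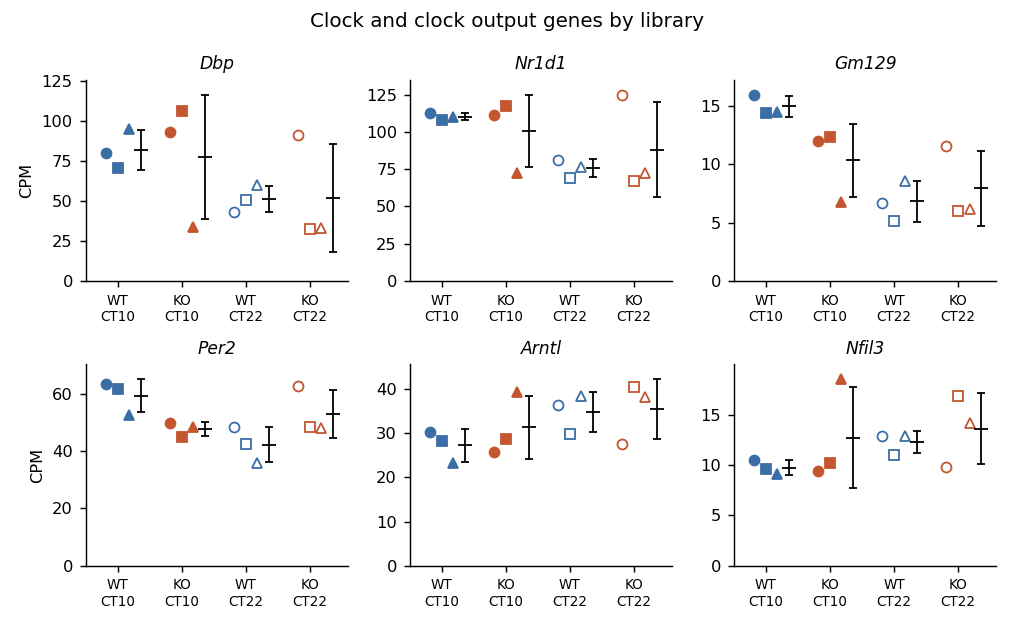
Level (CPM) of 6 clock and clock output genes by library, in the 4 groups; symbols as in the plot of glucocorticoid-induced genes, with triangles for replicate 3 and circles for replicate 1. The filled orange triangle, KO CT10 replicate 3, lies away from the other KO CT10 libraries in Dbp, Nr1d1, Gm129, Arntl and Nfil3, and the open orange circle, KO CT22 replicate 1, lies away from the other KO CT22 libraries in Dbp, Nr1d1, Gm129, Per2, Arntl and Nfil3.

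Of the 12 GABA-A receptor subunits, which form the channels of fast inhibition, 8 were lower and 4 higher, 5 lower at an unadjusted p under 0.05 (41.7%, against 2.50% of all genes) and 1 higher (8.33%, against 2.51%). Gabra2 was at 47.7, 48.3 and 46.5 CPM in WT and 33.6, 39.4 and 40.8 CPM in KO, a log2 change of -0.33 ± 0.10 (edgeR adjusted p = 0.786), without overlap. The groups were apart also in Gabrg1 (-0.35), found in glia as well as neurons, and Gabra5 (-0.19), a subunit of extrasynaptic receptors, and overlapped in Gabra4 (-0.23). Gabra3 went the other way, 46.2 ± 6.48 CPM in WT and 57.3 ± 7.49 CPM in KO (0.31), with overlap. Leaving out 1 library at a time, between 7 and 10 of the 12 subunits were lower. Among 19 genes of inhibitory synapse scaffolds and GABA handling 11 were lower and 8 higher; Slc6a11, given above, was lower, and Gad1, the main GABA-synthesising enzyme, was at 338, 336 and 334 CPM in WT and 371, 369 and 407 CPM in KO (0.19, apart).

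Of 15 ionotropic glutamate receptor subunits, which carry fast excitation, 7 were lower and 8 higher, and the groups were apart in 2 lower members (13.3%, against 5.42% of all genes) and 1 higher member (6.67%, against 4.88%). Without KO CT10 replicate 3, 11 of the 15 were lower, and without WT CT10 replicate 1 or KO CT10 replicate 2, 6 were. Grik4, a kainate receptor subunit concentrated in CA3, was at 89.98, 79.03 and 86.03 CPM in WT and 71.9, 71.5 and 68.6 CPM in KO, a log2 change of -0.27 (edgeR adjusted p = 0.787), and Grik3 was at 50.1 to 52.6 CPM against 54.0, 56.1 and 84.1 CPM (0.34), KO CT10 replicate 3 giving the highest value. Of 24 excitatory postsynaptic scaffold genes 15 were lower and 9 higher (12 to 20 lower with 1 library left out at a time). At an unadjusted p under 0.05, 3 were lower (12.5%, against 2.50% of all genes). These were Shank3, a master scaffold of the postsynaptic density, at 382, 432 and 381 CPM against 342, 295 and 333 CPM (-0.30), the kinase Camk2a at 6080, 5481 and 5586 CPM against 5095, 4913 and 4814 CPM (-0.21), and Dlgap3 (-0.19), each with the groups apart.

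Of 38 SR and hnRNP splicing factors 25 were lower, against 6644 of 13735 over all genes, and 3 were lower at an unadjusted p under 0.05 (7.89%, against 2.50% of all genes), none past the adjusted threshold. Clk1 and Clk4, kinases that phosphorylate SR proteins, were at log2 changes of -0.29 and -0.28, and Srsf7 at -0.21, all with the groups apart. In Clk1 the WT libraries held 107, 94.0 and 93.1 CPM and the KO libraries 89.6, 69.5 and 81.3 CPM. CREB factors and coactivators, with which NONO acts through CRTC proteins, held no member under that p: Crtc1 averaged 320.5 ± 12.98 CPM in WT against 292 ± 17.5 CPM in KO (-0.13), with overlap. No DNA end joining gene among 20 reached it either, 10 being lower and 10 higher.

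Genes induced by neuronal activity followed single libraries. Fos was at 13.96, 20.1 and 22.3 CPM in WT and at 6.07, 17.8 and 29.9 CPM in KO, and Arc at 212, 282 and 213 CPM against 114, 182 and 328 CPM. KO CT10 replicate 1 was thus the lowest and KO CT10 replicate 3 the highest of all 6 libraries in both genes. Of 39 activity-induced genes 24 were lower and 15 higher, and the lower count was 15 without KO CT10 replicate 1 and 31 without KO CT10 replicate 3. Arl4d, a small GTPase, was at 15.4, 15.4 and 16.4 CPM in WT and 9.33, 13.2 and 10.1 CPM in KO, a log2 change of -0.54 (edgeR adjusted p = 0.705), and Ier5 at 32.2 to 33.9 CPM against 38.2, 41.7 and 59.8 CPM (0.49), both apart.

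Stress and metabolic genes were examined next. Of 27 heat shock chaperones 18 were higher and 9 lower, and those with an unadjusted p under 0.05 were the chaperones of the endoplasmic reticulum Hspa5, at 194, 196 and 206 CPM against 212, 300 and 270 CPM (log2 change 0.39), and Hsp90b1, at 252 to 259 CPM against 279, 325 and 327 CPM (0.28). These are 7.41% of the list, against 2.51% of all genes. The count of lower chaperones was 2 without KO CT10 replicate 1, 5 without WT CT10 replicate 3 and 15 without KO CT10 replicate 3. Of 24 cholesterol synthesis genes 17 were lower and 7 higher (14 to 20 lower with 1 library left out at a time). At an unadjusted p under 0.05, 3 were lower (12.5%, against 2.50%). Sc5d, a sterol desaturase of the pathway, was at a log2 change of -0.20. Rbm3, an RNA-binding protein induced by cold, was at 104, 90.4 and 78.5 CPM against 85.0, 70.9 and 62.0 CPM (-0.32), with overlap. Cytosolic ribosomal protein genes (78 tested) and oxidative phosphorylation genes (75 tested) held 0 members under that p. Their scores, the mean log2 CPM of a list's members less their mean over these libraries, were highest in KO CT10 replicate 2 (0.209 and 0.205), and the count of lower ribosomal genes, 42 with all libraries, was 78 without that library, 19 without KO CT10 replicate 1 and 11 without KO CT10 replicate 3. Lower oxidative phosphorylation genes numbered 29 with all libraries. They numbered 65 without KO CT10 replicate 2, 16 without KO CT10 replicate 1 and 20 without KO CT10 replicate 3.

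Astrocytes, the glia that clear glutamate and supply neurons, were read through 24 markers. Of these 19 were lower and 5 higher, 8 lower at an unadjusted p under 0.05 (33.3%, against 2.50% of all genes) and 1 higher. Slc1a3, the glutamate transporter GLAST, was at 886, 810 and 894 CPM in WT and 769, 705 and 661 CPM in KO, a log2 change of -0.28 (edgeR adjusted p = 0.705). S100b was at 127, 118 and 116 CPM against 93.3, 112 and 88.3 CPM (-0.30), Mlc1 at 259 to 279 CPM against 222 to 240 CPM (-0.21), and Ndrg2 at 831 to 900 CPM against 713 to 800 CPM (-0.21), each with the groups apart. Sox9, given above, was the marker that was higher. The list's median was -0.11 (-0.06 without WT CT10 replicate 2 and -0.07 without KO CT10 replicate 3), leaving out 1 library at a time kept 17 to 20 of the 24 lower, and its summed level overlapped, from 8507 to 9304 CPM in WT and from 7893 to 8781 CPM in KO. Of the 12 glucocorticoid-induced genes described above none is among the markers listed for astrocytes, and whether astrocyte RNA had a part in their difference was not tested.

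Among other cell types, 18 of 20 microglia markers were lower with a median of -0.06 (13 and -0.01 without KO CT10 replicate 3, 17 and -0.15 without KO CT10 replicate 2), and Olfml3 (-0.27) was the only one with an unadjusted p under 0.05. All 17 oligodendrocyte markers were higher (median 0.16), none at that p. Without WT CT10 replicate 3, 11 were lower, and without both libraries high in choroid plexus markers 14 were (median -0.16). Their summed level was lowest in WT CT10 replicate 3, at 5174 CPM, and next lowest in KO CT10 replicate 3, at 6408 CPM. It was 7902 to 9379 CPM in WT CT10 replicates 1 and 2 and KO CT10 replicates 1 and 2. Of 9 precursor markers 5 were higher and 4 lower (7 lower without KO CT10 replicate 1 and 1 without KO CT10 replicate 3). Of 22 interneuron markers 14 were higher and 8 lower (5 to 10 lower with 1 library left out at a time), and beside Sst and Gad1 those with small p were Vip, at 11.04, 11.84 and 8.81 CPM against 12.6, 13.7 and 18.7 CPM (log2 change 0.50), and Npy, at 46.8, 58.4 and 49.9 CPM against 58.8, 71.7 and 57.3 CPM (0.27). Pvalb overlapped between groups (0.28).

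CA1 markers were higher in 10 of 11, 3 at an unadjusted p under 0.05 (27.3%, against 2.51% of all genes), with a score of -0.43 in WT CT10 replicate 3 and 0.43 in KO CT10 replicate 3. Dentate granule markers were lower in 15 of 19 and CA2 and CA3 markers in 14 of 19, with medians of -0.07 and -0.10. Neocortex markers were higher in 14 of 17, 4 at that p (23.5%), with a summed level of 498 to 531 CPM in WT and 566, 590 and 746 CPM in KO, every KO library above every WT library and KO CT10 replicate 3 the highest. Fezf2, a factor of deep-layer cortical neurons, was at 26.1, 32.4 and 25.8 CPM in WT and 33.2, 37.7 and 45.7 CPM in KO (log2 change 0.46). Thalamus and habenula markers were higher in 10 of 15 and striatum markers in 9 of 11, none with an unadjusted p under 0.05. The part of tissue composition in the gene differences above was not tested.

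Markers of vessels and surfaces were higher in most members. Of 21 endothelial and mural markers 18 were higher, 4 at an unadjusted p under 0.05 (19%, against 2.51% of all genes): Tagln, given above, Kdr (log2 change 0.50), Flt1 (0.28) and Cldn5 (0.46). Without the 2 libraries high in choroid plexus markers 11 of the 21 were higher. All 13 choroid plexus markers tested were higher with a median of 1.12, none at that p, with KO CT10 replicate 1 and WT CT10 replicate 3 the high libraries; the median was -0.49 without the former and 2.28 without the latter. Meningeal and fibroblast markers were higher in 17 of 18 (median 0.46), ependymal markers in 7 of 7 and blood cell markers in 6 of 6 (median 0.60). With 1 library left out the meningeal median ran from 0.18 (without WT CT10 replicate 1) to 0.65 (without KO CT10 replicate 2), and the blood median from 0.31 (without KO CT10 replicate 1) to 1.01 (without KO CT10 replicate 3). Without KO CT10 replicate 1, 6 of the 7 ependymal markers were lower, and 5 were without both libraries high in choroid plexus markers. Hba-a1, a globin gene, was at 182, 142 and 185 CPM in WT and 404, 354 and 130 CPM in KO. Interferon response genes were higher in 22 of 29 (16 without KO CT10 replicate 1, 12 without both libraries high in choroid plexus markers), with a score of 0.51 in KO CT10 replicate 1 and of -0.19 to -0.03 in the other 5 libraries.

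**Figure D5:**
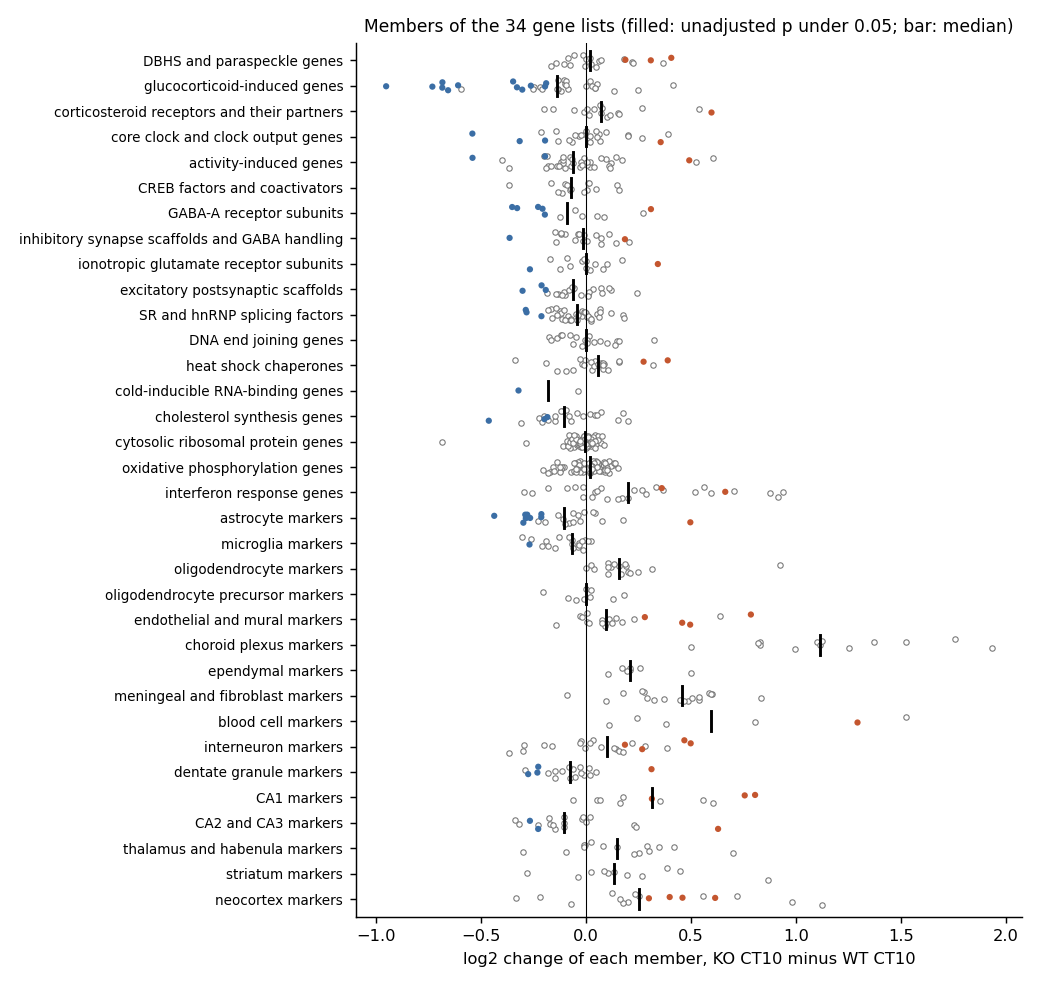
Log2 change (KO CT10 minus WT CT10) of every tested member of the 34 gene lists, 1 row a list; Nono is left out of the points. Filled points have an unadjusted p under 0.05 (blue lower, orange higher), and the black bar is the list's median. The filled points of glucocorticoid-induced genes and of all but 1 astrocyte marker lie left of 0, and choroid plexus markers have the median farthest from 0, with no filled point.

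To ask whether these differences were particular to the CT10 label, the KO effect at CT10 was set against that at CT22 over all 12 libraries. No gene passed an adjusted p of 0.05 for the difference of effects (0 of 14131, 0%, edgeR; lowest adjusted p = 0.737), and 861 genes (6.09%) had an unadjusted p under 0.05. DESeq2 also called 0 genes, with 735 at an unadjusted p under 0.05. No gene named here can thus be called particular to CT10. Side by side, Sgk1 was at -0.73 at CT10 and 0.05 at CT22, where WT held 45.1, 66.7 and 64.9 CPM and KO 64.4, 53.3 and 64.0 CPM. Ddit4 was at -0.66 and 0.02, with 47.2, 58.6 and 56.2 CPM in WT CT22 and 66.0, 52.7 and 45.4 CPM in KO CT22. In both genes the CT22 groups overlapped and the KO CT10 libraries lay near the CT22 levels. The difference of effects was -0.78 ± 0.21 (SE) for Sgk1 and -0.68 ± 0.18 for Ddit4, both with an adjusted p of 0.737.

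Of the 12 glucocorticoid-induced genes lower at CT10, 6 were lower and 6 higher in KO at CT22, their log2 changes there running from -0.29 to 0.28. These genes were picked by their CT10 values, which the difference of effects contains, so that all 12 differences were negative is no test. Without KO CT10 replicate 3 and KO CT22 replicate 1 the difference was negative in 9 of the 12: that of Hif3a went from -0.72 to 0.05, that of Sdc4 from -0.11 to 0.02 and that of Sesn1 from -0.14 to 0.00. Klf9 at CT22 was at 131, 155 and 121 CPM in WT and at 202, 157 and 135 CPM in KO, the highest value being that of KO CT22 replicate 1. Tsc22d3 was lower at both labels, -0.61 and -0.29. Crhbp was at 0.60 at CT10 and -0.16 at CT22, with a difference of effects of 0.76 ± 0.19 (adjusted p = 0.737), and Per2 at -0.31 and 0.33. Among DBHS genes Pspc1 was alike at both, 0.41 and 0.37 (difference 0.03 ± 0.14), while Sfpq was at 0.19 and 0.53, the latter past the threshold in the 12-library fit (edgeR adjusted p = 0.0349), with a difference of -0.35 ± 0.11 (adjusted p = 0.737).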

How the data were processed

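Hippocampal RNA was extracted with a column kit, made into stranded mRNA libraries and read on an Illumina instrument, as paired-end or single-end reads not assigned to libraries, per the labels' protocols. The submitters' processing notes name TopHat 1.3.3, RSEM 1.2.5, FastQC and edgeR 3.0.6, with build mm10. Each library has a deposited table of expected counts (estimated, not whole) over 30383 transcripts, per the file headers. The deposited KO over WT table was not used here.

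Counts of the transcripts of a symbol were added, giving 23329 genes, and rounded. Genes were filtered by filterByExpr (minimum count 10), scaled by TMM (factors 0.986 to 1.013) and tested with edgeR 4.0.16 in R 4.3.3, as a robust quasi-likelihood fit of the 6 CT10 libraries with Benjamini-Hochberg adjustment over 13735 genes and a threshold of 0.05. The biological coefficient of variation was 10.2%, with 4 residual degrees of freedom. CPM are counts scaled to a common total, given as mean ± SD, and the SE of a log2 change comes from the test's F value. The difference of KO effects was fitted over all 12 libraries. A gene at 0 counts in a CT10 library is below a floor of 3 counts, or 0.313 to 0.455 CPM. Intervals and floors cover counting error only. Reads of near-identical copies and of overlapping genes are uncertain, since the sources used here do not give the use of the strand in counting.

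The members of 34 gene lists, the rule for named genes and the tests were chosen with earlier results of these data known. The rule names Nono, genes past the threshold, then per direction the 12 genes of smallest p with at least 2 CPM and groups that do not overlap, then up to 6 members a list. Members named beyond these 6 (such as Fkbp5, Klf9 and the clock genes), Hba-a1, Fos and Arc were chosen after their values were seen. A list is described by counts and its median, with no set test. Replicate numbers did not pair the samples, so no block was used: deviations of samples with the same number correlated at 0.01, -0.10 and -0.05. The alternatives were RLE scaling, other filters, DESeq2 1.42.0, a fit without robust estimation, the 12-library fit, a replicate block and leaving out libraries. The procedure was tested on simulated data without libraries that stand apart, so that test does not cover the dependence on single libraries. Some genes are not reported here.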

Additional observations from a re-analysis of the deposited data

How the results depend on the processing

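The 4 genes past an adjusted p of 0.05 at CT10 became 9 with DESeq2 (Nono, Entpd4, Sgk1, Ddit4, Ddn, Tsc22d3, Pcdhga2, Sst and Crhbp), 1 in the fit without robust estimation and 1 in the 12-library fit. RLE scaling and no filter on low counts gave 4, and a minimum count of 50 gave 3. Leaving out 1 library at a time gave 1 to 4, lowest without WT CT10 replicate 1 or replicate 2, and 2 without KO CT10 replicate 2 or 3. Ddit4 was past the threshold in none of these fits. Without the 2 libraries high in choroid plexus markers there were 6. With the replicate number as a block 8 genes passed, adding Sst, Tsc22d3, Crhbp and Ldb2; only 1 of 6 samples correlated best with its own number, so the numbers were not taken to pair the samples. For the difference of KO effects each of 10 alternatives called 0 genes, the replicate block and the fit without KO CT10 replicate 3 and KO CT22 replicate 1 (chosen after seeing the data) included. Among the single genes examined at CT10 no alternative turned a direction. These genes were picked by a small p or by separated groups in the same libraries, so the kept directions are no test. Of their values under the alternatives, 21 lost and 9 gained a call. In the fit without those 2 KO libraries the difference of KO effects turned in Hif3a (0.05), Sdc4 (0.02) and Sesn1 (0.00). Of the list medians 21 moved by more than the spread between libraries. The 3 libraries a group and totals of 6595222 to 9597054 counts limit the precision, most in genes of low count, and no detection limit was estimated.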

Other observations

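Entpd4 took separated levels over the 12 libraries that crossed the groups: 73.5 to 81.4 CPM in the 3 WT CT10 libraries, WT CT22 replicate 1 and KO CT22 replicate 1, 114 to 127 CPM in the 3 KO CT10 libraries, WT CT22 replicate 2 and KO CT22 replicate 2, and 149 to 162 CPM in WT CT22 replicate 3 and KO CT22 replicate 3. At CT22 the levels thus followed the replicate number and not the genotype. The cause was not tested.

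Slc17a6, the vesicular glutamate transporter of thalamic and other subcortical neurons, stood at 24.1 CPM in KO CT10 replicate 3 and at 6.85 to 9.90 CPM in the other 5 CT10 libraries. Enpp2, expressed in oligodendrocytes and choroid plexus, was at 1230 CPM in KO CT10 replicate 1 and at 455 CPM in WT CT10 replicate 3, against 205 to 274 CPM in the other 4.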
